A study of Drosophila melanogaster with 4 samples.

Results

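The genes described here coat lipid droplets, store and release triglyceride, and burn fatty acids in mitochondria. They are 10 of the 17753 genes in the authors' deposited comparison of adult Drosophila melanogaster heads, and they were taken by name: the droplet coat genes Lsd-1 and Lsd-2, the lipase genes bmm and Hsl, the triglyceride synthesis genes mdy and Lpin, and the oxidation genes whd, CPT2, Mtpalpha and Mtpbeta. All 10 were found in the table and all 10 were among the 11757 genes with an adjusted p-value. The lamin-B overexpression heads had the genotype Hsp70-Gal4/+; +/UAS-LamB.GFP, in which a heat shock promoter drives the yeast activator Gal4 and Gal4 switches on GFP-tagged lamin B. The control sibling heads had the genotype +/+; +/UAS-LamB.GFP and so carried the transgene without the driver. Each group had 2 samples of RNA from pooled heads at day 30. No group carried the driver alone, so lamin B, the driver and whatever is inherited with the driver cannot be told apart. The labels give neither the sex of the flies nor any heat shock nor the number of heads in a pool.

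Animal cells keep spare fatty acids as triglyceride in lipid droplets, and proteins of the perilipin family on the droplet surface set how easily lipases reach that store. Fatty acids set free by the lipases are joined to carnitine, carried into mitochondria and shortened step by step in beta-oxidation. In flies the fat body is the main store, and a thin layer of it lines the head capsule around brain and eyes. Lsd-1 and Lsd-2 are the 2 fly perilipins. Droplet and oxidation genes are also used in muscle and glia, both of which are present in a head.

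In the overexpression heads Lsd-1 transcripts rose and Lpin transcripts fell, and the other 8 genes did not pass the test. Lsd-1 rose by 36.0% and Lpin fell by 12.9%, with shrinkage of the fold changes undone. None of the 4 oxidation genes and neither lipase gene was called. With 2 samples per group, the 95% interval of all 10 genes stayed within a 1.5-fold change either way. A gene was called where the authors' deposited adjusted p-value was under 0.05. Over all genes 8.74% were called, 5.66% higher and 3.07% lower, and among the 4810 genes whose mean normalized count reached 1000, as it did for all 10, the shares were 4.43% higher and 6.49% lower. With 1 gene higher and 1 lower, 10 genes are too few to set against these shares.

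Values per library could not be had for these 10 genes, since the deposited table gives each gene a mean over the libraries and a fold change. The group levels below are the values that this mean and the fold change imply, in normalized reads, that is reads divided by a size factor for the depth of the library. Nothing in the labels tells whether samples of a group came from separate cultures, so the p-values capture only how these samples vary, and that may be technical variation. Among the overexpression libraries the size factors came to 1.15 and 1.10, among the controls to 1.09 and 0.73, and the sum of all mean normalized counts was 33.5 M (1 M is 1000000). Lam, the gene for lamin B, was higher by 1.04 ± 0.0801 (standard error, SE) on the log2 scale by the authors' deposited table (adjusted p = 6.76e-36), in the direction the labels give. The eye colour gene w, which marks many fly transgenes, was higher by 0.65 ± 0.142 (SE; adjusted p = 2.28e-04) by the authors' deposited table. The rhodopsin gene ninaE of the eye had a mean normalized count of 1176380 and the neuronal gene elav 6140, as a head should have. Markers of the midgut and the male reproductive tract also differed between the groups, and their values stand further below. Called genes numbered 666 higher and 361 lower, or 887 and 292 with fold changes set relative to the median of genes with a mean of at least 500, which lay at -0.02 on the log2 scale.

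**Figure D1:**
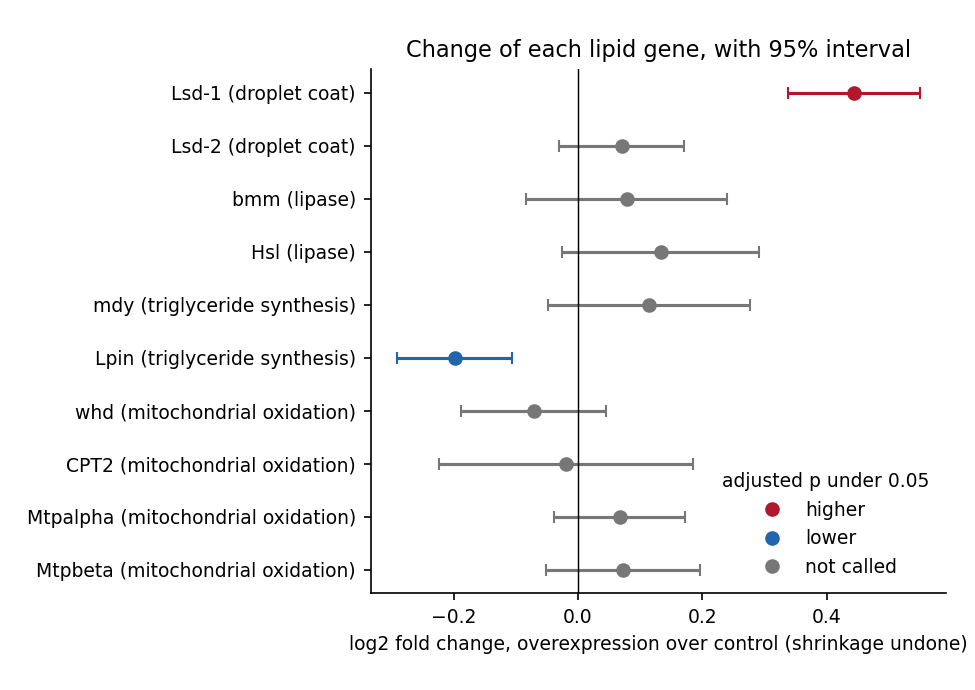
Change of the 10 genes between lamin-B overexpression and control sibling heads, as log2 fold change with shrinkage undone (points) and its 95% interval (bars), 2 samples per group. Lsd-1 lies at 0.44 and Lpin at -0.20, both away from 0, and the intervals of the other 8 genes include 0.

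The droplet coat gene Lsd-1 (FBgn0039114, chromosome 3R, 23763857 to 23766662 on the plus strand, build BDGP6) encodes the perilipin that brings hormone-sensitive lipase to the droplet and takes part in hormone-driven lipolysis. Its level was 25164 normalized reads in the overexpression heads and 18503 in the control heads. The authors' deposited table put its log2 fold change at 0.43 ± 0.0524 (SE; adjusted p = 3.13e-14), and with shrinkage undone it was 0.44 (SE 0.0539). The 95% interval of the increase ran from 26.4% to 46.3%. By p-value Lsd-1 stood at rank 66 of the 11757 genes tested, and its fold change was above that of 99.2% of the 4564 well measured genes for which shrinkage could be undone. The well measured genes were those with a mean of at least 1000 and a deposited SE of at most 0.12. Of the exon bases of Lsd-1, 7.35% also belong to CG10214 on the opposite strand, which had a mean of only 391.9 against 21833 for Lsd-1.

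The second perilipin gene, Lsd-2 (FBgn0030608, chromosome X, 15069127 to 15076220, minus strand), encodes a coat protein that shields stored fat from lipases and favours storage. It stood at 18984 normalized reads in the overexpression heads and 18084 in the controls. The authors' deposited log2 fold change was 0.07 ± 0.0502 (SE; adjusted p = 0.532). Its change with shrinkage undone was 4.98%, and the 95% interval ran from -2.12% to 12.6%, below the whole interval of Lsd-1. Per kilobase (kb) of exon, Lsd-1 was 3.11 times as abundant as Lsd-2 in the overexpression heads and 2.40 times in the controls. Exon length here covers all annotated transcripts, 1960 bases for Lsd-1 and 4598 for Lsd-2, and levels compared between genes depend on it. The changes of the 2 perilipin genes lay 0.37 apart on the log2 scale, Lsd-1 minus Lsd-2, a difference between genes that was not tested because the covariance of the 2 values is unknown.

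The lipase genes had small positive values that did not pass the test. The gene bmm (FBgn0036449, chromosome 3L, 14776496 to 14786412) encodes brummer, the fly counterpart of adipose triglyceride lipase and a main lipase of the fat body. Its level was 4657 normalized reads in the overexpression heads and 4411 in the control heads, which the authors' deposited table put at 0.07 ± 0.0774 (SE) as a log2 fold change (adjusted p = 0.737). The data leave room for a change of bmm between -5.61% and 18.1%. Hsl (FBgn0034491, chromosome 2R, 20257650 to 20261726) encodes hormone-sensitive lipase, the enzyme that Lsd-1 brings to the droplet. It had 2943 normalized reads in the overexpression heads and 2684 in the controls, and the authors' deposited table gave 0.13 ± 0.076 (SE; adjusted p = 0.381). Its interval ran from -1.75% to 22.4%, and its upper end lies below the lower end of the interval of Lsd-1.

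The synthesis genes lay on opposite sides of 0, and Lpin was the one called. Lpin (FBgn0263593, chromosome 2R, 8136986 to 8156654, minus strand) encodes lipin, which makes diacylglycerol from phosphatidic acid and, in the nucleus, acts in gene regulation. Its level was 14114 normalized reads in the overexpression heads and 16195 in the control heads. The authors' deposited log2 fold change was -0.19 ± 0.0465 (SE; adjusted p = 9.94e-04), and the interval with shrinkage undone ran from -18.3% to -7.04%. The change is larger than the fitted spread between samples, and 11.9% of the well measured genes had a lower fold change than Lpin. Lpin is annotated with 11 transcripts, which the table does not separate, and 600 of its exon bases belong also to kermit on the same strand, a gene with a mean normalized count of 299.1. The gene mdy (FBgn0004797, chromosome 2L, 16816660 to 16826964), called midway, encodes the diacylglycerol acyltransferase of the last step of triglyceride synthesis. It had 3983 normalized reads in the overexpression heads and 3679 in the controls, and its change of 0.11 ± 0.0778 (SE; adjusted p = 0.521) by the authors' deposited table did not pass. The interval of mdy ran from -3.28% to 21.2%.

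**Figure D2:**
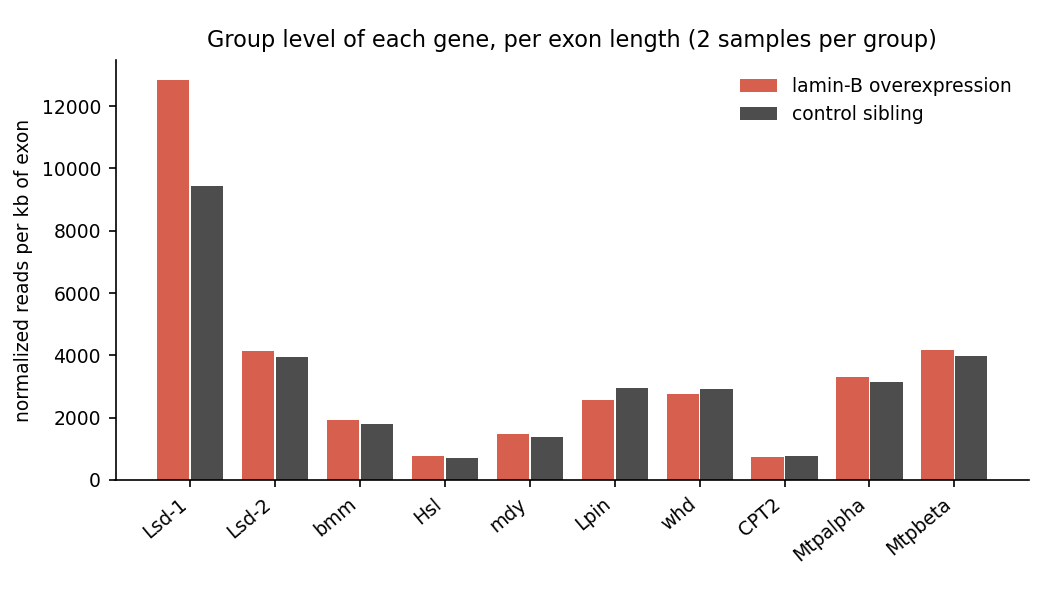
Group level of each of the 10 genes in lamin-B overexpression (left bars) and control sibling heads (right bars), in normalized reads per kb of exon. Each bar is 1 group value implied by the deposited mean and fold change, so it carries no spread between the 2 samples. Lsd-1 is the highest in both groups, at 12839 and 9440. Lpin is lower in the overexpression heads, at 2561 against 2939, and the other pairs of bars lie closer together relative to their height.

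The 4 oxidation genes differed little between the groups and none was called. Withered, the product of whd (FBgn0261862, chromosome 2R, 10469473 to 10478567), is the carnitine palmitoyltransferase of the outer mitochondrial membrane that controls entry of long-chain fatty acids. Its level was 8796 normalized reads in the overexpression heads and 9240 in the controls, which the authors' deposited table put at -0.07 ± 0.0576 (SE) as a log2 fold change (adjusted p = 0.617). The partner enzyme of the inner membrane, from CPT2 (FBgn0035383, chromosome 3L, 2981022 to 2983551), was the least abundant of the 10 by mean, with 1764 normalized reads in the overexpression heads and 1788 in the controls. The authors' deposited table put CPT2 at -0.02 ± 0.0943 (SE; adjusted p = 0.972). It was the least precisely measured of the 10, with an interval from -14.4% to 13.7%, and the sign of its value depends on the scaling (-0.02 as deposited, 0.0052 relative to the median of genes with a mean of at least 500).

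Mtpalpha (FBgn0028479, chromosome 2L, 9573563 to 9576769) and Mtpbeta (FBgn0025352, chromosome 2R, 23866648 to 23868603) encode the subunits of the mitochondrial trifunctional protein, which carries out the later steps of long-chain beta-oxidation. Mtpalpha had 9526 normalized reads in the overexpression heads and 9092 in the controls, and Mtpbeta had 6660 in the overexpression heads and 6333 in the controls. Their log2 fold changes in the authors' deposited table were 0.07 for each (adjusted p = 0.588 for Mtpalpha and 0.636 for Mtpbeta). The changes of these partner subunits differed by -0.01 on the log2 scale with shrinkage undone, Mtpalpha minus Mtpbeta, and Mtpalpha per kb of exon was 0.789 of Mtpbeta in the overexpression heads and 0.793 in the controls. Increases of Mtpalpha over 12.7% and of Mtpbeta over 14.6% lie outside their 95% intervals.

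**Figure D3:**
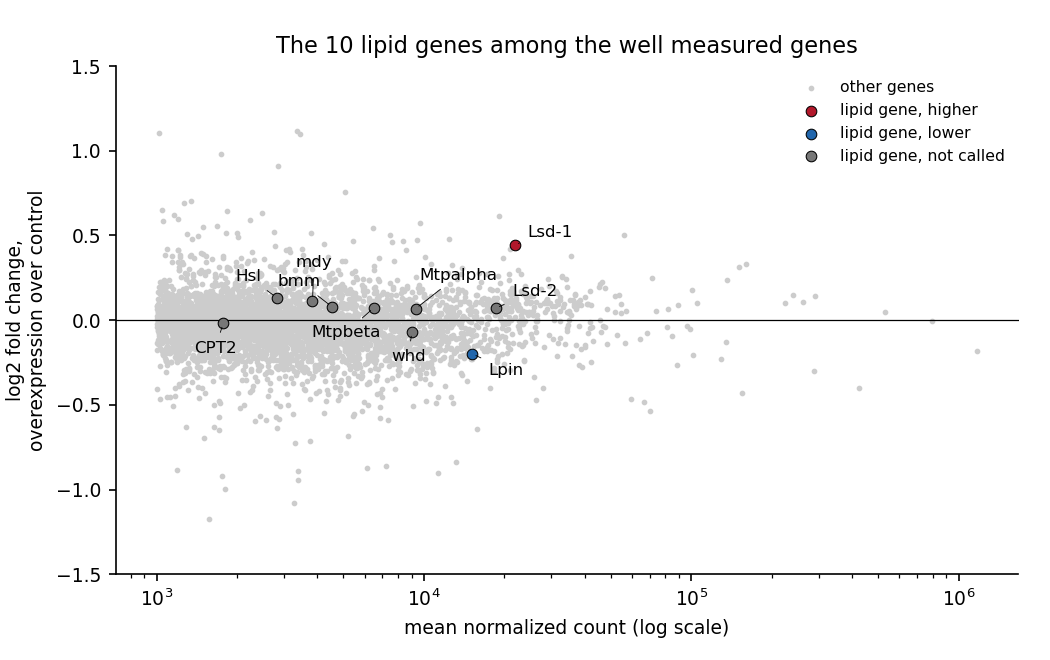
Mean normalized count (log scale) and log2 fold change with shrinkage undone, overexpression over control, of the 4564 well measured genes, with the 10 genes marked. Of these, 13 lie beyond 1.5 either way and are off the axis. Lsd-1 lies near the upper edge of genes as abundant as it is. Lpin lies on the lower side, at the 11.9 percentile of fold change among the plotted genes. Hsl and mdy lie on the upper side, at 88.1 and 85.7, and the rest of the 10 lie between.

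Lsd-1 led the order of levels in both groups. Per kb of exon it stood at 12839 normalized reads in the overexpression heads, followed by Mtpbeta at 4181, Lsd-2 at 4129, Mtpalpha at 3301, whd at 2770, Lpin at 2561, bmm at 1911, mdy at 1481, Hsl at 764.3 and CPT2 at 750.1. In the control heads Lsd-1 stood at 9440, Mtpbeta at 3975, Lsd-2 at 3933, Mtpalpha at 3151, Lpin at 2939, whd at 2910, bmm at 1810, mdy at 1368, CPT2 at 760.2 and Hsl at 697.0. The orders differ at the places of Lpin with whd and of Hsl with CPT2. The coefficient of variation between samples that the fit's standard errors imply was 3.67% for Lsd-1, 3.19% for Lpin and between 3.19% and 6.82% over the 10 genes. Mtpbeta and Lsd-2 in both groups, Hsl and CPT2 in the overexpression heads, and Lpin and whd in the controls lay closer together than this spread.

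Read counting contributed little to the uncertainty of these genes. Counting error made up 3.40% of the error variance of Lsd-1 and 11.3% of that of Hsl, the lowest and highest of the 10. The rest is the spread between samples as the authors' fit estimated it, which borrows information from other genes and rests on 2 samples per group. The 10 genes lay between the 70.0 and the 98.3 percentile of mean normalized count among all genes tested.

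The genes lie on 5 chromosome arms. Within 50 kb of them 166 other genes were tested and 6 were called, 5 higher and 1 lower, or 3.61% against 8.74% over all genes. No tested neighbour of Lsd-1 was called among 19. Near Lpin, of 23 neighbours only CG8708 was called by the authors' deposited table, at 0.31 ± 0.108 (SE; adjusted p = 0.0494) and with a mean of 34.9, against the direction of Lpin.

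Other genes of the same pathway were counted in 8 lists of 86 genes in all, of which 84 were tested. Of these, 8 were called higher and 3 lower, or 13.1% against 8.74% over all genes and 10.9% over genes with a mean of at least 1000. Relative to the median of genes with a mean of at least 500 the counts were 12 higher and 2 lower. The median deposited log2 fold change was 0.05 over the 84 genes and 0.01 over all genes tested. In the list of triglyceride synthesis and droplet assembly, 3 of 13 rose and 1 fell, with a median of 0.14. Jabba, a droplet protein that holds histones on droplets in fly embryos, had 13488 normalized reads in the overexpression heads and 11106 in the controls. The authors' deposited table made this a log2 fold change of 0.27 ± 0.0548 (SE), with an adjusted p of 3.95e-05. Desat1, the desaturase that makes monounsaturated fatty acids, had 147012 normalized reads in the overexpression heads and 124808 in the controls, which the authors' deposited table put at 0.23 ± 0.0409 (SE; adjusted p = 1.04e-06). Agpat2 and Agpat1, which encode acyltransferases that make phosphatidic acid, moved in opposite directions, by 0.31 ± 0.0946 (SE; adjusted p = 0.0183) for Agpat2 and -0.35 ± 0.104 (SE; adjusted p = 0.0122) for Agpat1 by the authors' deposited table.

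In the list of lipases, lipolysis partners and lipoproteins, 2 of 16 rose and 0 fell, with a median of 0.04, and both were lipid transport genes. Apoltp, for the lipid transfer particle that loads lipid onto lipoproteins, had 22262 normalized reads in the overexpression heads and 17236 in the controls. In log2 terms the authors' deposited table gave 0.34 ± 0.082 (SE), with an adjusted p of 9.82e-04. The lipoprotein gene apolpp rose by 0.14 (adjusted p = 0.00655) in the authors' deposited table. No lipase gene of the list was called, the nearest being Lip4 at 0.21 ± 0.0736 (SE; adjusted p = 0.0561) by the authors' deposited table. The 3 yolk protein genes of the list are related to lipases by sequence and were not called.

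Among 12 genes of fatty acid activation and the carnitine shuttle, 1 rose and 1 fell, with a median of 0.02. The gene bgm, or bubblegum, encodes a very long-chain acyl-CoA synthetase and had 7633 normalized reads in the overexpression heads and 5226 in the controls. For this change the authors' deposited table had a log2 fold change of 0.53 ± 0.0585 (SE), with an adjusted p of 4.11e-17. The fatty acid-binding protein gene fabp had 2359 normalized reads in the overexpression heads and 4380 in the controls. The authors' deposited table made this a log2 fold change of -0.82 ± 0.0859 (SE), with an adjusted p of 2.57e-19. These were the strongest changes of all the pathway genes by p-value. Acsl, the long-chain acyl-CoA synthetase gene, stood at -0.0018 by the authors' deposited table (adjusted p = 0.993).

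Mitochondrial oxidation enzymes beyond the 10 genes were not called at an adjusted p under 0.05. Of the acyl-CoA dehydrogenases and their electron carriers 0 of 9 were called, with a median of 0.07, and of the hydratases, dehydrogenases, isomerases and thiolases 0 of 10, with a median of 0.06. At an unadjusted p under 0.05 the count was 1 of the 19, against 24 of 84 over all pathway lists together. It was 7 of 13 for triglyceride synthesis and droplet assembly and 8 of 16 for lipases, lipolysis partners and lipoproteins. The share of all genes at that p was not worked out. Over all genes 8.74% were called. These 19 genes, like the 8 peroxisomal ones below, are too few to set against that share. By the authors' deposited table the smallest p-values belonged to CG3902 at 0.10 (adjusted p = 0.378) and Acat2, a thiolase gene, at 0.36 ± 0.127 (SE; adjusted p = 0.0513). Peroxisomal beta-oxidation had 0 of 8 called, 1 at an unadjusted p under 0.05, and a median of 0.04, led by CG17544 at -0.16 by the authors' deposited table (adjusted p = 0.231). Of 3 genes in the ketone body list 1 rose by the authors' deposited table, Hmgs at 0.37 ± 0.0826 (SE; adjusted p = 2.93e-04), whose enzyme in flies is known for isoprenoid synthesis. Of 13 regulators of lipid catabolism 1 rose and 1 fell, with a median of 0.0047. The sugar-induced transcription factor gene sug had 1559 normalized reads in the overexpression heads and 964.9 in the controls. In log2 terms the authors' deposited table gave 0.61 ± 0.105 (SE), with an adjusted p of 6.16e-07. By the authors' deposited table, Pka-C1, for the catalytic subunit of protein kinase A, fell by 0.21 ± 0.0723 (SE), with an adjusted p of 0.042, a call that was lost on adjustment over every gene with a p-value (adjusted p = 0.0546). The receptor gene AkhR of adipokinetic hormone, which triggers fat release, stood at 0.09 by the authors' deposited table (adjusted p = 0.579).

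**Figure D4:**
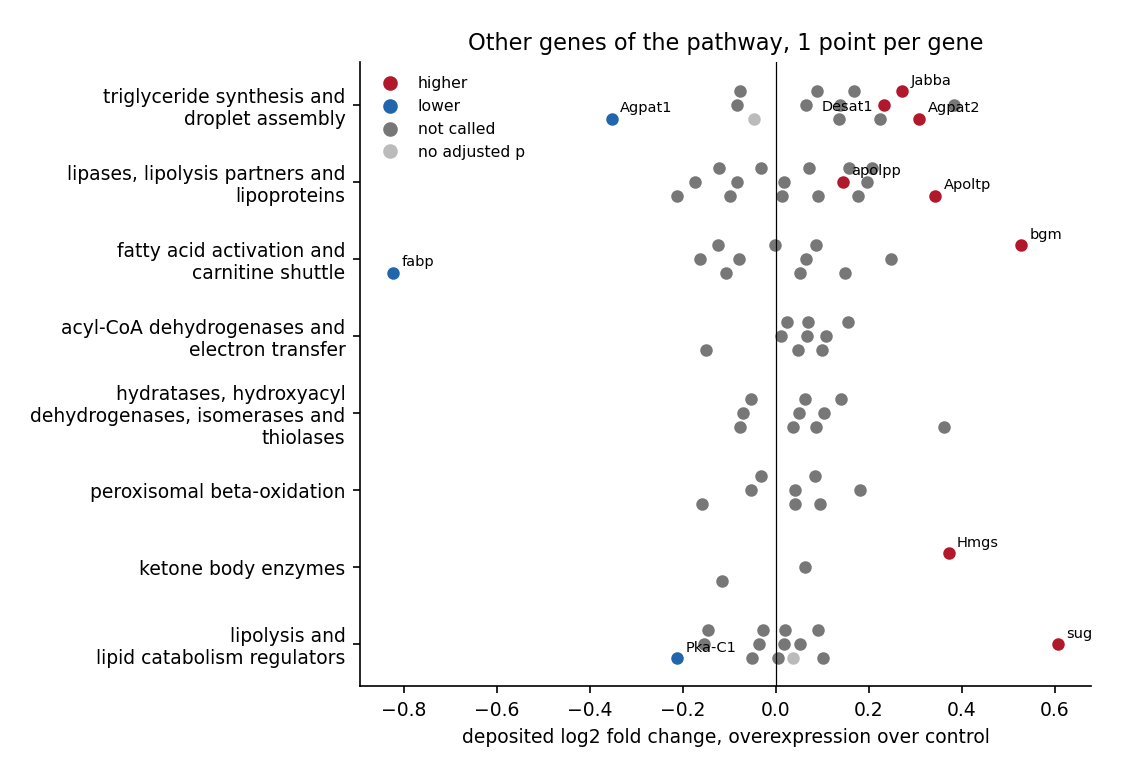
Deposited log2 fold change, overexpression over control, of the other pathway genes, 1 point per gene in 8 lists, coloured by call at an adjusted p under 0.05. Points for mitochondrial and peroxisomal oxidation lie close to 0 apart from Acat2 at 0.36, with none called, and the 8 genes called higher and 3 called lower, named beside their points, belong to the other lists.

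Reads of each library could be worked out for the 12 pathway genes whose mean normalized count was at most 100, because only certain read numbers in the 4 libraries add up to such a mean. The recovered libraries have a group and a size factor but no replicate number, and intervals and floors cover counting error only. CG5265, listed here with the carnitine acyltransferases, had 26 reads in the overexpression library with size factor 1.15, 122 in that with 1.10, and 0 and 0 in the controls. With the control group set to a floor of 3 reads, this is at least 39.9-fold higher. Leaving out one overexpression library gave a bound of 67.0 (without 1.15) or 13.8 (without 1.10). Leaving out one control gave 15.997 (without 1.09) or 23.9 (without 0.73). With 0 reads in both controls, these last values only rescale the floor by size factor and do not test either control library. In the authors' deposited table it missed the threshold (adjusted p = 0.0502). The gut lipase gene mag had 61 and 216 reads in these overexpression libraries, in the same order, against 56 and 6 in the controls with size factors 1.09 and 0.73, a ratio of 3.61 (95% exact interval 2.73 to 4.84), and did not pass either (adjusted p = 0.244). Without the control library with size factor 1.09 the ratio of mag was 15.0, and without the overexpression library with 1.10 it was 1.56. For both genes the overexpression library with size factor 1.10 had most of the normalized reads of its group, 83.0% for CG5265 and 78.6% for mag.

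That library held 63.6% to 84.1% of the group's normalized reads for the 6 male reproductive tract markers that could be resolved and 67.1% to 91.1% for 3 midgut markers, mag among them. Of all 10 male tract markers 9 were called higher, and of 11 midgut markers 7 were, with 0 lower in either list. Over all genes 5.66% were called higher and 3.07% lower. All marker lists were chosen with earlier results of these data known, which can raise such counts. The markers of largest change by p-value were Ebp, EbpII and Sfp87B for the male tract and Mal-A7, Jon65Aiii and Jon99Ci for the midgut. In the same order, the authors' deposited log2 fold changes were 4.69, 2.50 and 2.23 for the male tract and 1.34, 0.80 and 0.64 for the midgut. These values are shrunken, strongly so at low counts, and understate the differences in reads. Jon99Ci had 97 and 191 reads after overexpression and 0 and 0 in the controls. With the control group set to the floor of 3 reads, this is at least 77.6-fold higher. Of the male tract markers 5 of 6, and of the midgut markers 2 of 3, had 0 reads in both controls. The part of such tissue in the values of CG5265 and mag was not tested. Yp2, a yolk protein gene, had 11 and 28 reads after overexpression, against 47 and 21 in the controls, a ratio of 0.464 (95% exact interval 0.304 to 0.697), and did not pass the test (adjusted p = 0.624). Without the overexpression library with size factor 1.10 the ratio of Yp2 was 0.257, and without that with 1.15 it was 0.678. Without the control library with 1.09 it was 0.602, and without that with 0.73 it was 0.402. Mcad, the medium-chain dehydrogenase gene, had 25 and 37 reads after overexpression, against 20 and 25 in the controls, a ratio of 1.11 (95% exact interval 0.747 to 1.67). Akh, the hormone gene itself, had 10 and 6 reads after overexpression, against 0 and 3 in the controls, too few to read a change from.

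**Figure D5:**
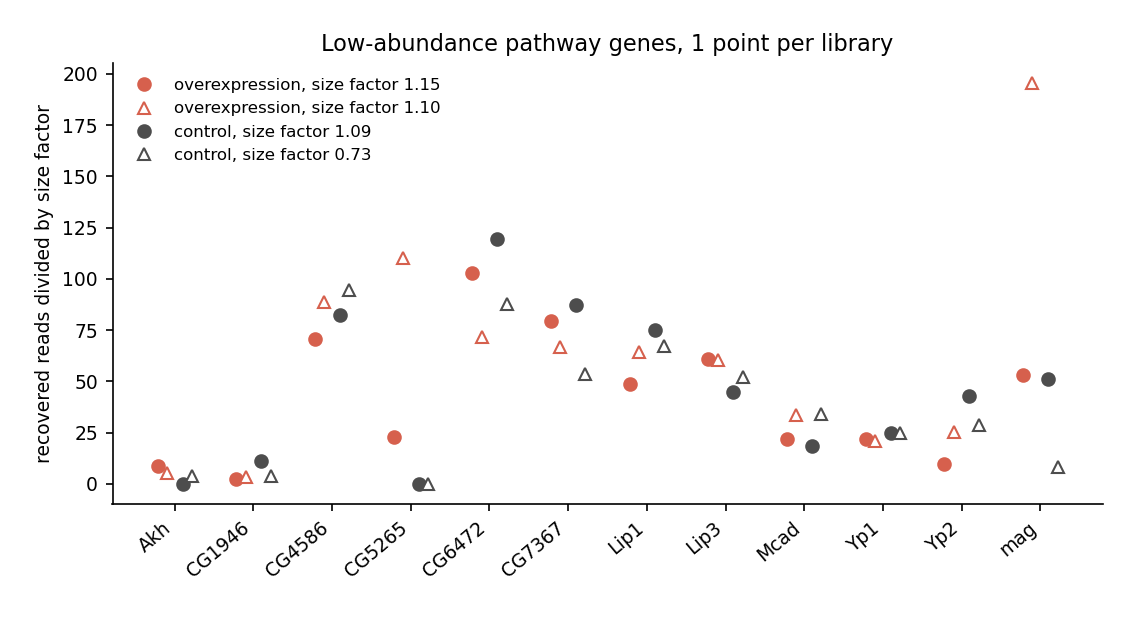
Recovered reads divided by size factor in each of the 4 libraries, for the 12 pathway genes with a mean of at most 100, overexpression libraries left of control libraries for each gene. CG5265 and mag are highest in the overexpression library with size factor 1.10, at 110.5 and 195.6, and for Mcad, CG4586, CG6472 and CG7367 the groups overlap.

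In bulk RNA, fewer cells of a type and less RNA per cell cannot be told apart, and markers of the tissues that use these genes moved too. The fat body list holds 12 genes, Cyp4g1 and Fad2 of the oenocytes among them. Of its 9 tested genes 4 rose and 3 fell, with a median of 0.11, while over all genes 8.74% were called. The summed level of all 12, tested or not, was 302281 normalized reads in the overexpression heads and 274076 in the controls, and apolpp alone made up 251486 of the sum in the overexpression heads and 227311 in the controls. The genes that fell were the hexamerin storage protein genes Lsp1beta, Lsp2 and Lsp1alpha, and those that rose were fon, bgm, apolpp and Cyp4g1. Lsp2, Lsp1alpha, apolpp and Cyp4g1 are named here after their values were seen. Lsp1beta stood at 4333 normalized reads in the overexpression heads and 7923 in the controls, opposite to Lsd-1, and fon, for a clotting protein of the fat body, at 14397 in the overexpression heads and 10331 in the controls. Fad2, used by oenocytes of females, had 1 read in all and Fbp2, a fat body gene, had 7. Both bgm and apolpp stand in the fat body list as well as in a pathway list.

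Muscle markers had 7 of 15 called higher and 0 lower, with a median of 0.17. Over all genes 5.66% were called higher and 3.07% lower, the shares that belong beside this count and the marker counts that follow. The summed level over 15 muscle genes was 146860 normalized reads in the overexpression heads and 134259 in the controls. By the authors' deposited table Prm, Act57B and Mlp84B led them, at 0.44, 0.29 and 0.33. Among 8 markers of glia 1 was higher, Gli, and 0 lower, with a summed level over 7 genes of 75319.5 in the overexpression heads and 78910 in the controls. Neuronal markers had 0 of 8 higher and 3 lower, cpx, Snap25 and elav, and photoreceptor markers 0 of 8 higher and 4 lower, led by Rh4, Rh6 and Rh3. The summed level of 4 neuronal markers, those 3 and nSyb, was 105018 in the overexpression heads and 129113 in the controls. The other neuronal markers had standard errors too large for a group level. The 8 photoreceptor markers summed to 1392760 in the overexpression heads and 1584440 in the controls. Of these sums ninaE alone made up 1102270 in the overexpression heads and 1250480 in the controls. Lsd-1 stood at 1.36-fold. The single fat body markers with shrinkage undone went both ways, so their range is too wide to place Lsd-1 by. Those that rose stood at 1.39-fold for fon, 1.46-fold for bgm, 1.49-fold for Cyp4g1 and 1.11-fold for apolpp. Those that fell stood between 0.520-fold for Lsp2 and 0.663-fold for Lsp1alpha, and Npc2g, which was not called, at 1.05-fold. Of the muscle markers with shrinkage undone, Prm stood highest at 1.38-fold. The others lay between 0.895-fold for bt and 1.27-fold for Mlp84B. The part of any of these tissues in the changes of Lsd-1, Lpin and the other called genes was not tested, and no value of them without the library with size factor 1.10 could be computed.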

How the data were processed

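Per the labels' protocols, oligo-dT enriched RNA of pooled heads was sequenced from both fragment ends for each of the 4 samples. The submitters' processing notes name STAR 2.5, HTSeq, DESeq2 1.22.1, DESeq and build BDGP6 without roles. Their settings were not given in the sources used here: strand and annotation are unknown. Results rest on 1 table of the authors' own comparison. Its authors' deposited signal is the mean normalized count, its deposited log2 values are the fold change and its standard error, its deposited score is the Wald statistic, and the authors' deposited p-values include an adjusted one that equals a Benjamini-Hochberg adjustment over 11757 genes to within 1.86e-06. The direction was read from the order of group names. A second deposited table, whose groups are not named, was not used. The design foresaw a count test where counts per sample were held; without them each gene's test is the authors' Wald test.

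Standard errors had an upper bound, as shrinkage gives, so shrinkage was undone with its constant, 9.73, where the mean was at least 1000 and the standard error at most 0.12. Group levels follow from mean and fold change. The undoing of shrinkage was tested on simulated data. Reads per library were recovered for means up to 100, to within 1.2e-08. Of 100 deposited genes with means of 60 to 100, 80 had a single solution and 0 had none, and 45 of 100 random values also had a solution, so reads at those means are the least certain. A library's group was taken from the sign of genes with 1 read. Positions and exon lengths are from Ensembl release 115, on BDGP6. An exon length counts every base that lies in an exon of any annotated transcript of the gene. Python 3.11.15, scipy 1.17.1 and pandas 2.3.3 were used. The 10 genes were given by name, and they and the lists were chosen with earlier results of these data known. Named list genes are those called, at most 5 per list and direction, or that of smallest p, and at most 3 called markers per list. Acsl, AkhR, Lip4, CG5265, mag, Mcad, Akh, Yp2, Npc2g, Fad2 and Fbp2 were named after their values were seen. Of 106 pathway symbols, 86 genes were found; 2 symbols that proved to be other kinds of gene were left out.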

Additional observations from a re-analysis of the deposited data

How the results depend on the processing

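Lsd-1 and Lpin kept direction and call under 5 alternatives. These were adjustment over every gene with a p-value, Benjamini-Yekutieli adjustment, restriction to means of at least 500 and a threshold of 0.01. The last was centring on the median of genes with a mean of at least 500. Only centring changed the test statistic. The others reuse the deposited p-values, so direction could not change under them. Both genes had a deposited adjusted p under 0.01 already, so that threshold tested nothing. Undoing shrinkage keeps the p-values, and a threshold of 0.1 cannot lose a call, so neither bears on the calls of Lsd-1 and Lpin. Their log2 fold changes ranged from 0.43 to 0.45 and from -0.20 to -0.17, with an adjusted p of at most 3.12e-13 and 0.00991. No other of the 10 genes was called under these or at 0.1, and CPT2 changed sign to 0.0052 under centring, which only subtracts a constant. Over all genes, 666 higher and 361 lower became 388 and 204 at a threshold of 0.01 and 326 and 168 with Benjamini-Yekutieli adjustment, and among means of at least 500 they were 237 and 336, so that most calls there were lower. The cause was not tested. The pathway lists, with 8 higher and 3 lower, had 12 and 2 under centring, 9 and 3 among means of at least 500, and 11 and 3 at 0.1. Acat2 was the gene gained among means of at least 500. At 0.1 those gained were CG5265, Acat2 and Lip4 (adjusted p = 0.0502, 0.0513 and 0.0561 by the authors' Wald test). The 3 pathway genes called lower became 1 at 0.01 and 1 with Benjamini-Yekutieli adjustment. Agpat1, Agpat2 and Pka-C1 were not called under either, apolpp not under the second, and Pka-C1 also not under adjustment over every gene or centring (adjusted p = 0.0546 and 0.0733). No paired analysis was possible because the table holds no values per sample. For the same reason another normalization, count models, a filter before the fit and leaving out a sample were not run for the 10 genes. Depth limits the genes with means of at most 100, not the 10.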
